A study of Mus musculus with 5 samples.

Results

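Non-productive T cell receptor (TCR) rearrangements were 5733 of the 75709 clonotype entries found in the RNA of sorted CD4 single positive (CD4 SP) thymocytes, or 7.57%. Each entry joins a V segment, a J segment and the nucleotide sequence of the CDR3, the loop in which the segments meet, and carries the number of reads assigned to it. An entry was counted as non-productive when its translated CDR3 held a frame break or a stop codon, and all others are called productive here. The TCRα chain (TRA) gave 4151 non-productive rearrangements among 32937 and the TCRβ chain (TRB) gave 1582 among 42772. Of those in TRA, 4105 were out of frame and 46 were in frame with a stop codon, and of those in TRB, 1512 were out of frame and 70 were in frame with a stop codon. The length of every out-of-frame CDR3 left a remainder of 1 or 2 bases when divided by 3.

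T cells assemble their receptor genes in the thymus by V(D)J recombination, in which the RAG enzymes cut beside V, D and J segments, nucleases trim the ends, terminal transferase adds bases without a template and the ends are ligated. Because the number of bases lost and added varies, many joins leave the J segment out of frame, and a cell that makes such a join can still try its other allele, or, in the α locus, replace the join with one between V and J segments lying farther out. A cell with one failed and one functional allele therefore carries both, and the transcript of the failed allele holds a premature stop codon, which nonsense-mediated decay degrades.

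The study compared wild type (WT) mice with mice that lack the DNA-demethylating dioxygenases TET2 and TET3 (*Tet2/3* DKO), both on the C57BL/6J strain. The DKO genotype was Tet2-/- in all cells with Tet3 flx/flx deleted by CD4cre, so *Tet3* is lost from the CD4+CD8+ double positive (DP) stage, after most *Tcrb* joins are made. No treatment was given, and the study's methods describe young, age-matched mice. The sorted cells were live, CD24 low, CD4+, TCRβ+ and CD8-, with no binding of the αGalCer-loaded CD1d tetramer that marks iNKT cells. There were 3 WT and 2 DKO libraries. Each was made from a separate mouse according to the study, which describes all the mice as male.

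The libraries held 17607089 to 27267031 reads assigned to genes. *Tet3* fell in DKO cells (log2 fold change -1.50 ± 0.18 SE, adjusted p = 0.00121, edgeR quasi-likelihood test with Benjamini-Hochberg adjustment), whereas *Tet2* had a log2 fold change of 0.46 (adjusted p = 0.135 in the same test). The library of DKO replicate 1, labelled male, held 744 *Xist* reads and 7 reads over 4 Y-linked genes, whereas WT replicate 1, labelled female, held 0 and 6821. These counts go against the labelled sex in 2 libraries, and each comparison of the genotypes is also given without DKO replicate 1 where that changes its direction or call. Of the 8 CD4 SP markers, all were detected, and *Cd4* and *Cd5* were lower in DKO cells (log2 fold changes -0.67 and -1.28, adjusted p = 0.00951 and 8.59e-05, edgeR). Across 8 alternatives the call held in 8 for *Cd5*, 5 for *Cd4* and 6 for *Tet3*. The summed level of 2 CD8 lineage genes was 68.8 to 77.1 CPM (counts scaled to a common library total) in WT and 34.3 to 35.8 CPM in DKO libraries, that of 3 γδ T cell genes 16.98 to 20.3 and 77.7 to 119 CPM, that of 3 myeloid genes 6.12 to 11.6 and 19.8 to 44.1 CPM, that of 3 B cell genes 2.01 to 3.24 and 1.76 to 2.85 CPM and that of 3 DP thymocyte genes 158 to 180.1 and 115 to 155 CPM, with *Rag1* at 0 reads. Members of these lists did not all move together: *Cd8b1* was 68.2 CPM in WT and 27.8 in DKO cells on average but *Cd8a* 3.67 and 7.22 CPM, and *Tcrg-C1* was 3.88 and 81.2 CPM, *Trdc* 13.4 and 16.8 CPM and *Sox13* 1.03 and 0.231 CPM. The sums of the CD8, γδ, myeloid and DP lists did not overlap between the genotypes, and their part in the comparisons that follow was not tested.

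The rearrangements with the most reads show what failed joins look like. The largest non-productive TRA entry of each library follows, 5′ to 3′ from the conserved cysteine codon of V to the phenylalanine codon of J, with the bases that belong to neither the aligned V nor the aligned J in capitals (none where the segments met or overlapped). The aligned V or J can run past its germline end, as by 2 bases of V in WT replicate 1.
WT replicate 1, TRAV7-4 with TRAJ18: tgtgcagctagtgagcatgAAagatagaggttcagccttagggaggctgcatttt
WT replicate 2, TRAV3D-3 with TRAJ9: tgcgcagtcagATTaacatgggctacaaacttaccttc
WT replicate 3, TRAV1 with TRAJ31: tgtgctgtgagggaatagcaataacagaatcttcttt
DKO replicate 1, TRAV12-2 with TRAJ52: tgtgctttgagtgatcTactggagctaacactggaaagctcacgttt
DKO replicate 2, TRAV12-1 with TRAJ49: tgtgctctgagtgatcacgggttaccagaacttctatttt

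These 5 entries had 4, 4, 5, 8 and 43 reads in the order listed, and the entry of WT replicate 1 was tied with 3 others. The largest non-productive TRB entries, shown in the same way, had longer stretches between V and J, which hold the D segment and added bases.
WT replicate 1, TRBV13-2 with TRBJ2-5: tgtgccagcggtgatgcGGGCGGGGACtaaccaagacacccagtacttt
WT replicate 2, TRBV31 with TRBJ2-5: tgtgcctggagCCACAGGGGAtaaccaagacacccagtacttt
WT replicate 3, TRBV4 with TRBJ2-4: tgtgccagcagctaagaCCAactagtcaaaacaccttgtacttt
DKO replicate 1, TRBV3 with TRBJ1-3: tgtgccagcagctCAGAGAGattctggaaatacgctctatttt
DKO replicate 2, TRBV20 with TRBJ2-1: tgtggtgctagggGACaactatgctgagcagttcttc

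Their read numbers were 3, 3, 4, 4 and 40, with ties in WT replicates 1 and 2. In-frame entries with a stop codon were rarer. For each genotype and chain, an entry with the most reads is shown with the stop codon in capitals, and others may tie with it.
WT replicate 2, TRAV13-4-DV7 with TRAJ23: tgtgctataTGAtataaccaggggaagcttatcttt
DKO replicate 1, TRAV15-2-DV6-2 with TRDJ1: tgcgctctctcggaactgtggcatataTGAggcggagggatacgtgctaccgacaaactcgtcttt
WT replicate 1, TRBV4 with TRBJ2-2: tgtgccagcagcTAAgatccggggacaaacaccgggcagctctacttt
DKO replicate 2, TRBV13-1 with TRBJ2-1: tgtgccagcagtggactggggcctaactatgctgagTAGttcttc

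These had 3, 3, 3 and 2 reads, in the order listed. The stop codon lies at the junction in both TRA entries, in the V end of the TRBV4 entry and in the J end of the TRBV13-1 entry. The germline TRBJ2-1 reads cag where the TRBV13-1 entry has TAG, and the lowest base quality in that entry's CDR3 was 22. Whether this stop is a sequencing error was not tested.

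The first comparison asked how large the non-productive share was in each chain. In TRA, 12.6%, 12.6% and 12.2% of the entries were non-productive in WT replicates 1, 2 and 3, and 12.7% and 13.2% in DKO replicates 1 and 2. In TRB the shares were 3.64%, 3.52%, 4.30%, 3.03% and 3.90% in the same order. The share was thus higher in TRA than in TRB in each of the 5 libraries, with no overlap. Counting intervals were narrow against this gap, with a 95% Wilson interval of 11.9% to 13.4% for TRA in WT replicate 1. These intervals cover counting error only, as reads without molecular identifiers are not independent molecules.

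Weighted by reads, the non-productive share of TRA was 11.3%, 11.5% and 10.9% in WT and 10.9% and 11.2% in DKO libraries. For TRB it was 3.45%, 3.36% and 4.16% in WT and 2.55% and 2.80% in DKO libraries. In every library and chain the share of reads was below the share of entries.

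**Figure D1:**
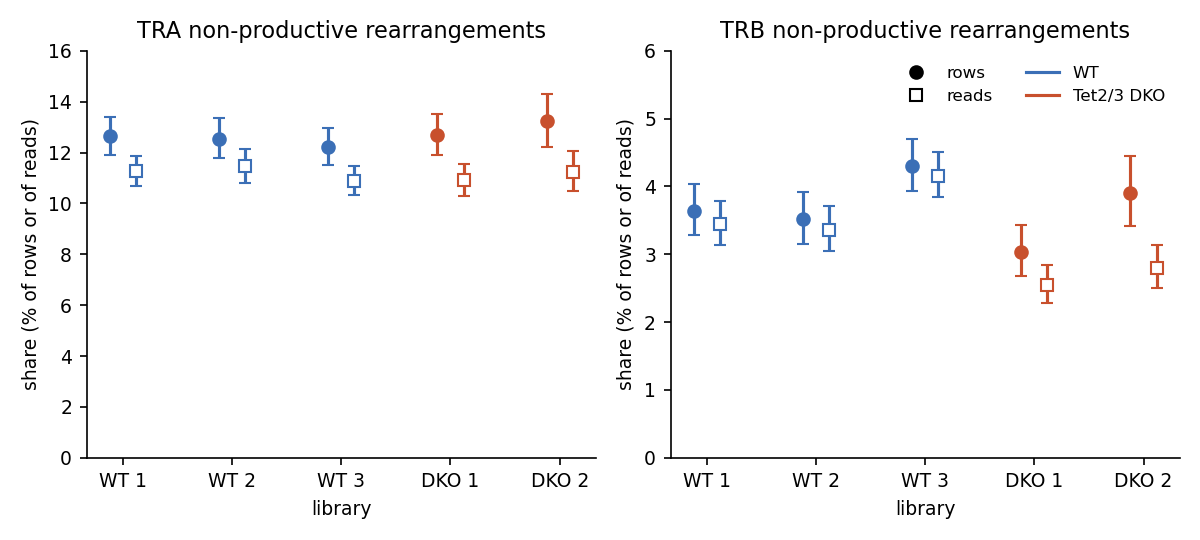
Non-productive share of TCRα (left) and TCRβ (right) rearrangements in each library, in percent of entries (filled circles) and of reads (open squares), with 95% Wilson intervals, WT in blue and *Tet2/3* DKO in red. The TRA shares lie between 10.9% and 13.2% and the TRB shares between 2.55% and 4.30%.

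The second comparison asked whether loss of TET2 and TET3 changed these shares. The mean share of TRA entries was 12.5% ± 0.215 among WT libraries (SD, n = 3) and 13.0% ± 0.391 among DKO libraries (SD, n = 2), a difference of 0.483 percentage points with both DKO libraries above the WT range (exact permutation test, two-sided p = 0.1, Benjamini-Hochberg adjusted p = 0.2 over 4 comparisons). The difference was 0.206 points without DKO replicate 2, 0.759 without DKO replicate 1 and 0.0756 (exact permutation p = 0.9) over entries of at least 2 reads, and over out-of-frame entries alone DKO replicate 1 lay inside the WT range. For TRB entries the means were 3.82% ± 0.418 and 3.46% ± 0.616 with overlapping groups (exact permutation p = 0.6, adjusted p = 0.7). The TRB difference of -0.357 points became 0.0788 points without DKO replicate 1.

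By reads, the TRA shares overlapped, with means of 11.2% ± 0.290 (SD, n = 3) and 11.1% ± 0.244 (SD, n = 2) (exact permutation p = 0.7, adjusted p = 0.7). Both DKO libraries lay below all WT libraries for TRB reads, 2.68% ± 0.181 (SD, n = 2) against 3.66% ± 0.437 (SD, n = 3), a difference of -0.981 points (exact permutation p = 0.1, adjusted p = 0.2). A p of 0.1 is the smallest that 3 against 2 libraries can give, so none of these 4 comparisons could pass a threshold of 0.05. The TRB reads are also where a few productive clones weigh most: in DKO replicates 1 and 2 the 10 largest productive entries held 8.55% and 34.0% of the productive TRB reads, against 0.449% to 0.529% in WT libraries. When the 10 largest entries of each library were left out, the TRB difference was -0.470 points (exact permutation p = 0.6), and the TRA difference by reads turned from -0.125 to 0.427 points. The TRA difference by reads also changed sign, to 0.00467 and 0.0473 points, without WT replicate 2 or DKO replicate 1.

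Out-of-frame lengths with a remainder of 1 base made up 53.4% in TRA (2191 against 1914 entries) and 52.9% in TRB (800 against 712 entries), and 49.8% to 56.4% in single libraries of either chain. A stop codon beside the frame break was found in 680 out-of-frame TRA entries and 129 TRB entries, which was 15.7% to 17.6% of the out-of-frame entries of a library in TRA and 7.53% to 9.34% in TRB. The share of TRA in-frame entries with a stop codon was 0.0584%, 0.155% and 0.158% in WT and 0.247% and 0.225% in DKO libraries, from 4, 9, 11, 14 and 8 entries. The groups did not overlap (exact permutation p = 0.1, adjusted p = 0.333 over 10 comparisons of the genotypes), while in TRB the shares of 0.118% to 0.225% in WT and 0.128% and 0.151% in DKO libraries overlapped. Of the 46 TRA stops, 13 lay inside J and differ from the germline J, as described below.

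A share of reads below the share of entries means fewer reads per entry, so the following values restate that result entry by entry. In TRA they had 1.25, 1.23 and 1.26 reads per entry in WT and 1.298 and 1.331 in DKO libraries, against 1.43, 1.37, 1.44, 1.54 and 1.60 for productive entries in the same order. The mean log2 ratio within libraries was -0.21, with the non-productive class lower in 5 of 5 libraries (exact sign-flip test, two-sided p = 0.063, adjusted p = 0.0938 over 6 comparisons). In TRB the non-productive entries had 1.204, 1.19, 1.24, 1.23 and 1.37 reads and the productive entries 1.28, 1.25, 1.28, 1.47 and 1.93 reads. The mean log2 ratio was -0.19, again lower in 5 of 5 libraries (exact sign-flip p = 0.063, adjusted p = 0.0938). The value of 0.063 is the smallest that 5 libraries allow.

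Without the 10 largest entries of each library the log2 ratios were -0.16 in TRA and -0.08 in TRB, still lower in 5 of 5 libraries. Single-read entries made up 79.3% of the non-productive and 72.2% of the productive class in TRA, and 80.5% and 77.6% in TRB. The share of single-read entries was thus higher in the non-productive class of both chains, and the part of large clones in the gap in reads per entry was not tested. In WT libraries the log2 ratio was -0.15 to -0.19 in TRA and -0.05 to -0.08 in TRB, and in DKO libraries -0.25 and -0.27 in TRA and -0.26 and -0.49 in TRB, with no overlap of the groups in either chain (exact permutation p = 0.1 each, adjusted p = 0.333 over 10 comparisons). Without the 10 largest entries of each library, an alternative added after the values were seen, the TRA ratios overlapped, with means of -0.161 in both genotypes (exact permutation p = 1), and the mean TRB difference shrank from -0.31 to -0.06 (exact permutation p = 0.1).

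**Figure D2:**
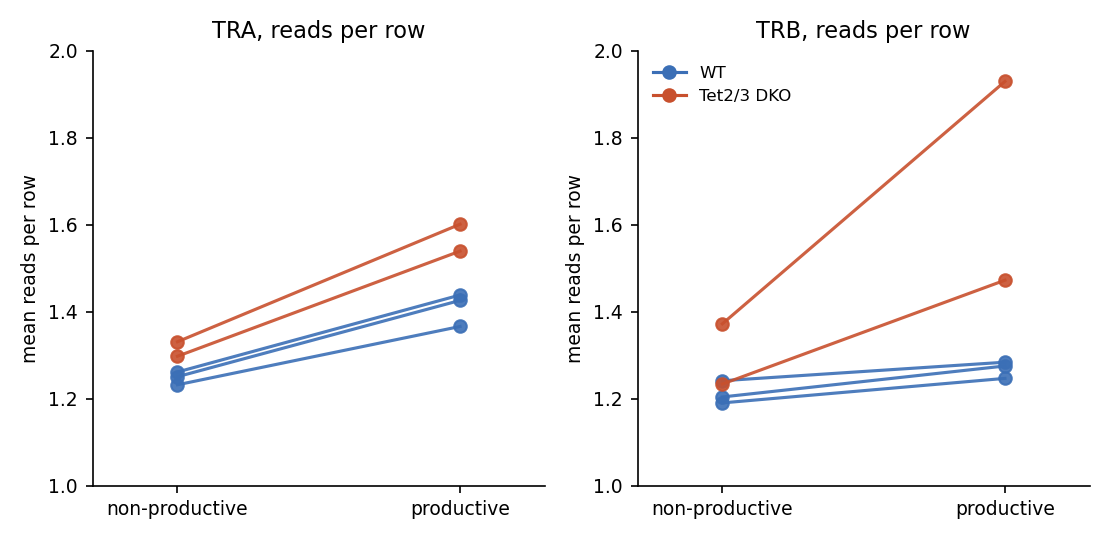
Mean reads per TCRα (left) and TCRβ (right) entry for the non-productive and the productive class of each library, joined by a line (WT in blue, *Tet2/3* DKO in red); the y axis starts at 1 read. Each of the 10 lines rises from the non-productive to the productive class, most steeply for TRB in DKO replicate 2, from 1.37 to 1.93 reads.

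Few non-productive rearrangements were abundant. Only 22 TRA and 4 TRB entries exceeded 3 reads, and in the WT libraries the highest was 5 reads. DKO replicate 2 stood apart, with non-productive TRA entries of 43 and 33 reads, the latter a join of TRAV14-1 with TRAJ49, and a TRB entry of 40 reads. The 33-read entry was chosen after its value was seen and is shown as above.
DKO replicate 2, TRAV14-1 with TRAJ49: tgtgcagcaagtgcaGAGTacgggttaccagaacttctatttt

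The 43-read entry held 5.97% of the non-productive TRA reads of that library, the 33-read entry 4.58% and the 40-read TRB entry 13.6%. By reads they ranked 7, 8 and 7 among all entries of their chain in the library. No read of any of them was found in the other 4 libraries, and none lay within 1 base change, insertion or deletion of a larger entry with the same V and J. The next largest non-productive entries of the library had 7 reads in TRA and 4 in TRB, so the 3 entries lay well above the rest. The 10 largest non-productive entries held 15.0% of the non-productive TRA reads in this library against 2.75% to 3.76% in the other libraries, and 21.4% against 5.43% to 8.64% in TRB. DKO replicate 1 showed no such entry, with at most 8 reads in TRA and 4 in TRB.

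The CDR3 of productive entries can only have lengths in whole codons, so the length classes differ by construction, and their centre and spread were compared. In TRA the median length of non-productive CDR3s was 41 bases in all 5 libraries, and that of productive CDR3s was 42 bases in 4 libraries and 39 bases in DKO replicate 1. In TRB the medians were 43, 42, 41, 43 and 43 bases against 42 bases in each library. The difference in medians was -0.4 bases in TRA (exact sign-flip p = 0.75) and 0.4 bases in TRB (exact sign-flip p = 0.625, both with adjusted p = 0.75). By the mean, an alternative added after the values were seen, non-productive CDR3s were longer in 5 of 5 libraries, by 0.825 bases in TRA and 0.894 bases in TRB (exact sign-flip p = 0.063 each).

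The spread was wider in the non-productive class. In TRA the SD of length was 4.67 to 5.02 bases among non-productive and 3.96 to 4.09 bases among productive entries of a library. Non-productive lengths ran from 13 to 88 bases in TRA and from 19 to 55 bases in TRB. The mean lengths of non-productive CDR3s did not separate the genotypes, with 41.4 bases in WT and 41.3 in DKO cells for TRA (exact permutation p = 0.9; DKO higher by 0.0259 bases without WT replicate 2) and 41.9 and 42.2 bases for TRB (exact permutation p = 0.5).

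**Figure D3:**
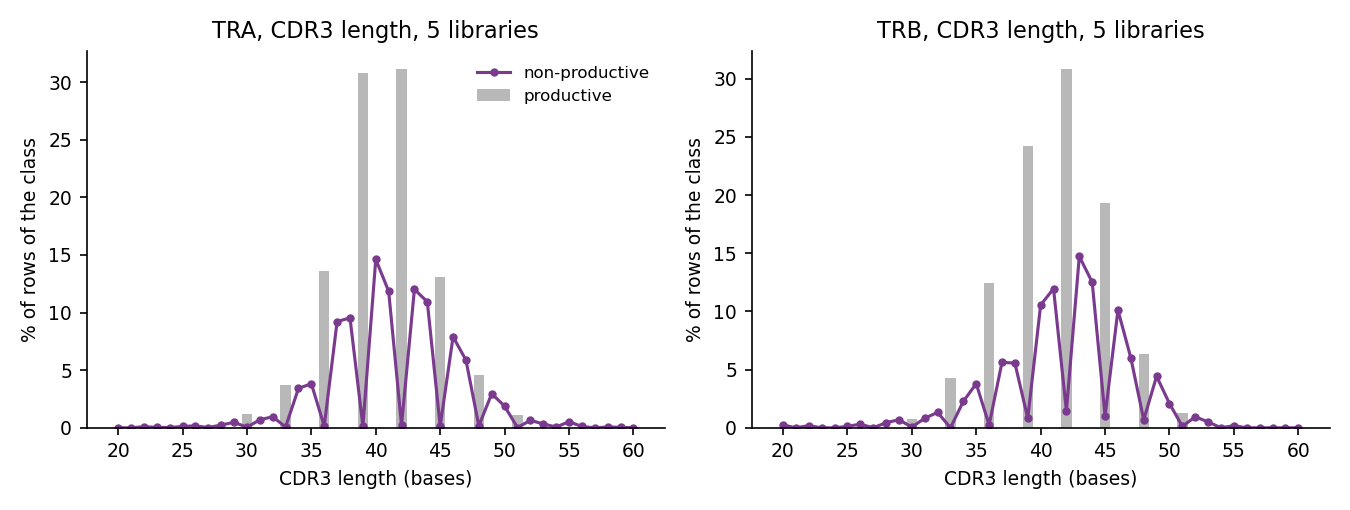
CDR3 length in bases of productive (grey bars) and non-productive (purple line) TCRα and TCRβ entries, in percent of the entries of each class with the 5 libraries pooled. Productive lengths occur only at multiples of 3, and out-of-frame lengths lie between them around the same centre, with the non-productive median at 41 bases in TRA, whereas the few in-frame entries with a stop share the productive lengths.

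The bases between the aligned ends of V and J, which hold added bases and, in TRB, the D segment, were more numerous in failed joins. In TRA there were 2.36, 2.47 and 2.50 such bases on average in WT and 2.39 and 2.48 in DKO libraries, against 2.10, 2.17, 2.17, 2.06 and 1.97 in productive entries. In TRB the averages were 9.85, 9.52, 9.59, 9.49 and 9.86 bases against 8.78, 8.74, 8.78, 8.75 and 8.63. The excess was 0.345 bases in TRA and 0.926 bases in TRB, in 5 of 5 libraries for each (exact sign-flip p = 0.063, adjusted p = 0.0938). The non-productive means differed between DKO and WT cells by -0.00994 bases in TRA and 0.0242 bases in TRB (exact permutation p = 0.9 each), less than the spread between libraries. With single libraries left out, which was added after the values were seen, neither sign held: the TRA difference was 0.00312, 0.0171 and 0.0386 bases without WT replicate 2, WT replicate 3 and DKO replicate 1, and the TRB difference was -0.0437, -0.00828 and -0.160 bases without WT replicate 2, WT replicate 3 and DKO replicate 2.

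V segments were used unequally by the 2 classes, and in TRB this was largest for a pseudogene. Among the 23 TRB V segments with at least 50 entries, 15 differed in use between non-productive and productive entries (65.2%, adjusted p under 0.05, edgeR quasi-likelihood test with library as a block and Benjamini-Hochberg adjustment), 5 of them higher (21.7%) and 10 lower (43.5%) among non-productive entries. With TMM factors, which centre the changes over segments, 9 segments differed, 5 higher and 4 lower, so the number of lower calls depends on the scaling. TRBV24, a pseudogene in the annotation at chr6:41218091-41218557 (mm10, plus strand), gave 8.22% ± 1.76 (SD, n = 5) of the non-productive but 0.115% ± 0.0649 of the productive TRB entries (log2 fold change 6.24 ± 0.31 SE, adjusted p = 4.14e-34, edgeR). Of its 177 entries, 133 were non-productive, 25 of 32, 30 of 33 and 45 of 58 in WT replicates 1 to 3, and 14 of 24 and 19 of 30 in DKO replicates 1 and 2. Its non-productive entries were thus the majority in each library.

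The germline end of TRBV24 shows a stop codon upstream of the CDR3, in capitals, followed by 1 codon and then the cysteine codon that opens the CDR3, and that of TRBV4, a functional V gene at chr6:41059394-41059886 (mm10, plus strand), ends in a stop codon inside the CDR3.
TRBV24 germline end: gcactgTAGctctgtgccagcagtctgta
TRBV4 germline end: gctgtgtatctctgtgccagcagcTAAga

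The stop codon of TRBV24 lies outside the CDR3, so the definition used here did not count the 44 TRBV24 entries with an open CDR3 frame. Its entries had few reads in either class, with at most 3 reads each and 1.22 reads per non-productive entry. The next lines give its largest non-productive entries in WT and in DKO cells, each tied with others and chosen after values were seen, with the bases between V and J in capitals.
WT replicate 3, TRBV24 with TRBJ2-2: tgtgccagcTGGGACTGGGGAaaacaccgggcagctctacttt
DKO replicate 1, TRBV24 with TRBJ1-1: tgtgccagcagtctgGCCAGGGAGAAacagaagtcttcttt

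TRBV4 carries the TAA as codon 5 of its germline CDR3, and it was the single TRB V gene of 22 with a germline stop codon there, against 0 of the 98 TRA V genes whose germline end was found. TRBV4 made up 10.4% ± 1.16 (SD, n = 5) of the non-productive and 3.52% ± 0.194 of the productive TRB entries (log2 fold change 1.56 ± 0.15 SE, adjusted p = 2.58e-16, edgeR). It gave 26 of the 70 in-frame TRB entries with a stop codon, 11 of 21, 4 of 10 and 6 of 21 in WT replicates 1 to 3, and 3 of 10 and 2 of 8 in DKO replicates 1 and 2. In all 26 the stop was codon 5 of the CDR3: in 23 it was a TAA inside the aligned V, as in the TRBV4 to TRBJ2-2 join above, and in 3 a TAG that overlapped the bases between V and J. In-frame stops were 1.60% of the 1624 TRBV4 entries and 0.107% of the 41148 entries of other V segments. TRBV4 was also out of frame more often, in 8.62% of its entries against 3.33%, and 59 of its 140 out-of-frame entries also translated to a stop at codon 5.

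The other TRB V segments of the rule that was used for naming moved less. TRBV12-1 (log2 fold change 1.31), TRBV31 (0.92) and TRBV29 (0.75) were higher among non-productive entries, and TRBV3 (-1.35), TRBV13-2 (-1.18), TRBV16 (-0.998), TRBV13-3 (-0.92) and TRBV26 (-0.91) lower, with adjusted p of 0.0361 or less (edgeR). TRBV31, which lies downstream of the constant regions and rearranges by inversion, made up 15.8% ± 3.20 (SD, n = 5) of the non-productive and 8.18% ± 1.55 of the productive entries. TRBV3 made up 3.77% against 9.51% and TRBV13-2 4.45% against 10.03%. Calls for TRBV24, TRBV4, TRBV3, TRBV12-1 and TRBV13-2 were kept under all alternatives that could be fitted (10 for TRBV24 and 11 for the others), TRBV31, TRBV16 and TRBV13-3 each lost the call under 1 alternative, TRBV26 under 5 and TRBV29 under 6 of 11, where its log2 fold change went as low as -0.90.

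**Figure D4:**
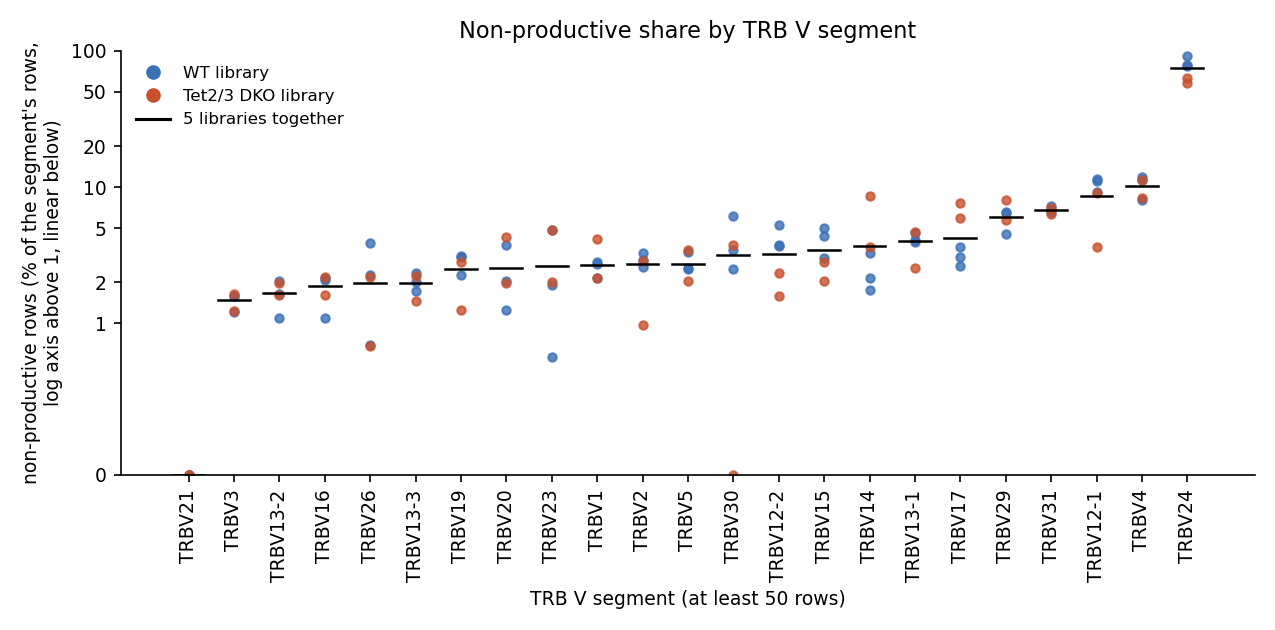
Percent of the entries of each TRB V segment that were non-productive, for the 23 segments with at least 50 entries, per library (dots, WT in blue, *Tet2/3* DKO in red) and pooled (black line); the y axis is logarithmic above 1% and linear below. The pseudogene TRBV24 lies at 75.1% pooled, far above the median of 2.74%.

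Few entries used V pseudogenes, and 1 segment of each chain gave most of their non-productive entries. In TRB, 146 of the 254 entries with a V pseudogene were non-productive (57.5%), against 1436 of 42518 with a V gene (3.38%). In TRA the numbers were 115 of 281 (40.9%) and 4036 of 32656 (12.4%). Without TRBV24 the TRB pseudogenes were non-productive in 13 of 77 entries (16.9%), and without TRAV8-2 those of TRA in 32 of 72 (44.4%). Pseudogenes differed among themselves: TRBV22 had 11 non-productive of 16 entries, TRBV25 had 2 of 47 and TRBV18 had 0 of 13, while TRAV8-2 had 83 of 209, TRAV20 had 13 of 22 and TRAV3-2 had 1 of 12. In the germline sequence, the reading frame upstream of the CDR3 was open for 105 to 152 codons in the TRA and TRB V genes with a germline end, but for 1 to 27 codons in the 3 TRB and for 20 to 108 codons in the 5 TRA pseudogenes with one. The pseudogene with 108 open codons was TRAV8-2. All 9 entries of TRAJ61, the single J pseudogene found, were non-productive.

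Among 81 TRA V segments, 46 differed in use between the classes (56.8%, edgeR with Benjamini-Hochberg adjustment), 21 higher (25.9%) and 25 lower (30.9%) among non-productive entries, and TMM factors gave 23 higher and 19 lower. The α locus holds near-identical copies of many V genes, and 15.2% to 21.4% of TRA entries in a class and library had a single V hit, so a segment name here often stands for a set of copies and calls of single copies are uncertain. Over entries with a single V hit, 29 segments could be tested, with 2 higher and 8 lower. TRAV1 does not share this limit, as 99.3% of its entries had 1 hit. TRAV1 (chr14:52427928-52428876, mm10, plus strand) made up 3.01% ± 0.691 (SD, n = 5) of the non-productive and 0.480% ± 0.133 of the productive entries (log2 fold change 2.57 ± 0.17 SE, adjusted p = 1.19e-15, edgeR). Of its 268 entries, 124 were out of frame and none held an in-frame stop. Non-productive entries were 38.2%, 51.0% and 40.4% of the TRAV1 entries in WT replicates 1 to 3 and 50.7% and 60% in DKO replicates 1 and 2, above the pooled median of 12.04% over TRA V segments in each library.

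TRAV13D-4 (log2 fold change 2.52), TRAV11 (2.19), the pseudogene TRAV8-2 (2.18) and TRAV15-2-DV6-2 (1.82) were also higher among non-productive entries (adjusted p of 4.80e-05 or less, edgeR). TRAV14N-2 (-3.01), TRAV6-4 (-1.91), TRAV14N-1 (-1.85), TRAV9D-1 (-1.75) and TRAV7-2 (-1.68) were lower, with adjusted p of 0.0241 or less. Except for TRAV7-2, these rest on few non-productive entries. They were 1 of 65 for TRAV14N-2, 7 of 193 for TRAV6-4, 7 of 185 for TRAV14N-1 and 3 of 76 for TRAV9D-1. The log2 fold change of TRAV14N-2 had an SE of 0.985 and ran from -5.91 to -2.59 over the alternatives. TRAV9D-1 lost the call under 2 of 9 alternatives. TRAV13D-4 had 50 entries, the minimum for the test, and only 4 alternatives could be fitted for it. TRAV7-2, with 1906 entries the best measured of these, was 4.30% non-productive and made up 1.91% ± 0.590 (SD, n = 5) of the non-productive against 6.38% ± 0.532 of the productive entries.

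Calls were also counted by V subgroup, whose copies share hits and are not independent, and are to be read against the 25.9% higher and 30.9% lower over all TRA V segments. Of 9 TRAV14 segments tested, 8 were lower and none higher, and 336 of 5302 TRAV14 entries were non-productive (6.34%). Of 11 TRAV7 segments, 6 were lower and none higher, and of 8 TRAV9 segments 3 were lower and none higher, close to the overall share. In the other direction, 3 of 4 TRAV3, 4 of 6 TRAV13 and 3 of 6 TRAV12 segments were higher and none was lower, with 370 of 1453 TRAV3 entries non-productive (25.5%). TRAV4 and TRAV6 were split, with 1 TRAV4 segment higher and 3 lower of 5, and 3 TRAV6 segments higher and 1 lower of 10. Among the smaller subgroups with several segments, TRAV15 had 2 of 2 and TRAV8 2 of 4 higher, and TRAV10 2 of 3 and TRAV5 1 of 3 lower, with no call on the other side, and TRAV16 had 0 calls of 2.

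J use turned on TRAJ32 in TRA. Of 44 TRA J segments, 15 differed between the classes (34.1%, edgeR with Benjamini-Hochberg adjustment), 8 higher (18.2%) and 7 lower (15.9%), and DESeq2 called 6, 3 in each direction. No TRA entry had more than 1 J hit. TRAJ32 (chr14:54186101-54186166, mm10, plus strand) made up 5.90% ± 0.734 (SD, n = 5) of the non-productive and 1.75% ± 0.137 of the productive entries (log2 fold change 1.73 ± 0.13 SE, adjusted p = 3.21e-28, edgeR). Its germline part of the CDR3 and its largest non-productive entry, which was tied with others and chosen after values were seen, are as follows, with the bases between V and J in capitals in the latter.
TRAJ32 germline CDR3 part: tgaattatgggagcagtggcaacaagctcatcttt
WT replicate 1, TRAV14-2 with TRAJ32: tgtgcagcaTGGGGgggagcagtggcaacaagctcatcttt

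Of the 750 TRAJ32 entries, 243 were non-productive, 33.2%, 31.6% and 26.0% in WT replicates 1 to 3 and 38.6% and 34.7% in DKO replicates 1 and 2. Their frame was skewed, with 171 out-of-frame lengths leaving a remainder of 2 bases and 71 leaving 1, whereas over all TRA entries a remainder of 1 was the more frequent. TRAJ35 (log2 fold change 1.26, 46 of 179 entries non-productive), TRAJ45 (1.03, 80 of 351) and TRAJ28 (0.67) were higher as well, as was TRDJ1 of the δ chain (0.73). TRAJ44 (-1.29, 22 of 398 entries non-productive), TRAJ57 (-1.04), TRAJ13 (-0.99), TRAJ39 (-0.78) and TRAJ40 (-0.65) were lower, with adjusted p of 0.0192 or less for all these segments (edgeR). TRDJ1 and TRAJ28 each lost the call under 4 alternatives, TRAJ57, TRAJ39 and TRAJ40 under 2 and TRAJ44 and TRAJ13 under 1, whereas TRAJ32, TRAJ35 and TRAJ45 kept it under all that could be fitted.

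**Figure D5:**
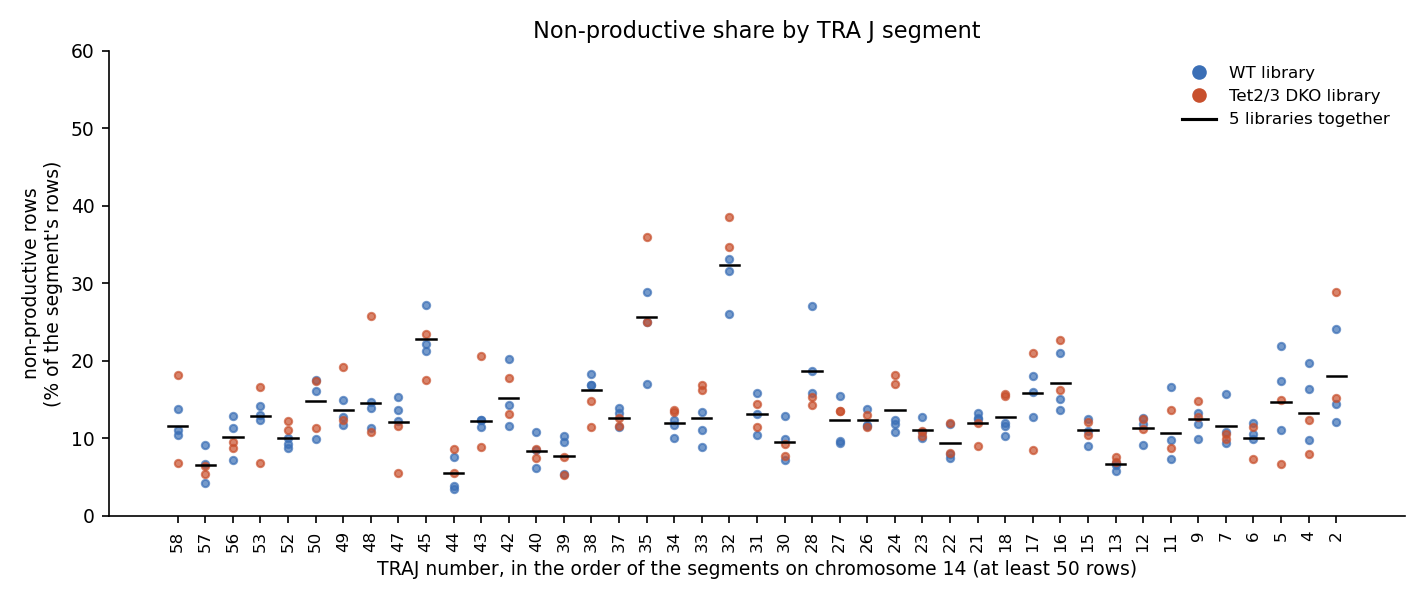
Percent of the entries of each TRA J segment that were non-productive, for segments with at least 50 entries in locus order, per library (dots, WT in blue, *Tet2/3* DKO in red) and pooled (line). TRAJ32 is highest at 32.4% pooled and TRAJ44 lowest at 5.53%, around a median of 12.4%.

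TRB J segments differed little. Of 12, 3 were called (25%), TRBJ2-1 higher (8.33%; log2 fold change 0.30) and TRBJ1-1 (-0.38) and TRBJ2-4 (-0.32) lower (16.7%), each with adjusted p = 0.0237 (edgeR), and each lost the call under 7 or 8 of 11 alternatives. TMM factors gave 0 higher and 2 lower, and DESeq2 called none of the 12 and 5 at an unadjusted p under 0.05. The share of non-productive entries ran from 2.86% to 5.40% over TRB J segments, against 5.53% to 32.4% over TRA J segments.

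In-frame stop codons were also found outside TRBV4. In TRA, 33 of the 46 stop codons overlapped the bases between V and J (71.7%) and 13 lay inside the aligned J (28.3%), while none lay inside the aligned V. In TRB, 39 of 70 overlapped the bases between V and J (55.7%), 23 lay inside V (32.9%) and 8 inside J. No germline J sequence held a stop codon in the frame in which in-frame entries read J. The stops inside J therefore differ from the germline bases, and whether they are sequencing errors was not tested. The codons were TGA in 18, TAG in 16 and TAA in 12 TRA entries, and TAA in 30, TGA in 25 and TAG in 15 TRB entries.

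The genotypes were then compared in the segment use of non-productive entries alone. In TRA V, 1 of 56 segments passed (1.79%, edgeR), TRAV4-2 at chr14:53418349-53418873 (mm10, plus strand), with 1.69% ± 0.489 (SD, n = 2) of the non-productive entries in DKO and 0.592% ± 0.345 (SD, n = 3) in WT cells (log2 fold change 1.40 ± 0.38 SE, adjusted p = 0.0154, edgeR with Benjamini-Hochberg adjustment). This rests on 6, 2, 9, 11 and 11 entries in the 5 libraries, and the call was lost under 8 of 11 alternatives, among them leaving out WT replicate 1 or 2 or either DKO replicate. Without WT replicate 2 another segment passed, lower in DKO cells. In TRA J, 0 of 44 segments passed (0%), with 4 at an unadjusted p under 0.05 by edgeR and 0 by DESeq2. In TRB V, 0 of 20 passed (0%), with 3 at an unadjusted p under 0.05 by either tool, and the smallest p belonged to TRBV17 (log2 fold change 1.27, adjusted p = 0.0529, edgeR). In TRB J, 0 of 12 passed (0%), with 2 at an unadjusted p under 0.05 by either tool, which by edgeR were TRBJ2-2 (-0.98) and TRBJ1-2 (0.66), both with adjusted p = 0.0526 (edgeR). Leaving out DKO replicate 1 gave 3 TRB V calls, and leaving out WT replicate 1 or 2 gave 1 or 2. Leaving out DKO replicate 2 or WT replicate 3 gave 2 or 1 TRB J calls, and leaving out WT replicate 3 gave 2 TRA V calls, 1 higher and 1 lower in DKO cells.

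The segments that set failed joins apart were thus found in both genotypes. TRBV24, TRBV4, TRAV1 and TRAJ32 were higher among non-productive than productive entries in each of the 5 libraries, and none of them was called between DKO and WT cells.

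Rearrangements with the same V, J and CDR3 bases can arise independently in different animals, above all where few bases are added, and a smaller share of non-productive than of productive TRA rearrangements was found in more than 1 library. Of 4137 distinct non-productive TRA rearrangements, 13 were found in at least 2 libraries (0.314%), against 1270 of 27257 productive ones (4.66%). Set against the number of pairs of entries from different libraries, 15 of 6828186 non-productive and 1844 of 327705825 productive TRA pairs matched, so the rate was lower in the non-productive class by this measure too. In TRB, 0 of 1582 non-productive rearrangements were shared, which allows a share of up to 0.190%, against 488 of 40661 productive ones (1.2%). By pairs this was 0 of 982327 against 577 of 671593357, and at the productive rate 0.844 matches would be expected, so a lower rate in TRB was not detectable at this number of entries. The shared TRA joins had -2 to 3 bases between V and J, where a negative number marks an overlap of the aligned segments. They were found in WT libraries only in 7 cases, in both genotypes in 6 and in DKO libraries only in 0. With 3 WT and 2 DKO libraries of unequal depth, this split was not tested and is not read as a genotype difference. The most widely shared one, in 3 libraries with 3 reads in WT replicate 1, 2 in DKO replicate 1 and 1 in DKO replicate 2, had no bases between V and J.
TRAV12-2 with TRAJ37: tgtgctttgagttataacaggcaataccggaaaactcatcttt

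Genes whose products act on failed joins or make them were given as 2 lists. Over all genes, 530 of 13525 differed between DKO and WT cells (3.92%, adjusted p under 0.01, edgeR with Benjamini-Hochberg adjustment), 2.42% higher and 1.5% lower in DKO cells. Of 17 nonsense-mediated decay genes, such as the helicase gene *Upf1*, all were tested and 0 were called, with a median log2 fold change of 0.05 against 0.01 over all genes. The decay factor gene *Smg9* stood at 56.2 ± 0.553 CPM in WT (SD, n = 3) and at 40.8 ± 0.385 CPM in DKO cells (SD, n = 2), without overlap of the groups (log2 fold change -0.46, adjusted p = 0.0211, edgeR). Of 16 V(D)J recombination genes, 14 were tested and 0 were called, with a median log2 fold change of 0.07. *Rag1* had 0 reads in each library and *Rag2* had 1 read in all, in WT replicate 2. *Dntt*, which encodes terminal transferase, had 444, 560 and 528 reads in WT and 285 and 253 reads in DKO libraries (log2 fold change -0.53, adjusted p = 0.106, edgeR). *Dclre1c*, which encodes the hairpin-opening nuclease Artemis, had a log2 fold change of 0.67 (adjusted p = 0.0155, edgeR) and *Lig4*, the ligase of the final join, -0.82 (adjusted p = 0.128, edgeR). Of the genes in the pair of lists, *Dclre1c* was called in 2 of 8 alternatives and *Smg1* and *Smg9* in 1 each.

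Sequencing errors can shift a frame or make a stop codon, and values that bear on this were measured. Of the non-productive entries, 77 in TRA and 7 in TRB lay within 1 base change, insertion or deletion of an entry with the same V and J and more reads in the same library. This was 0.924% to 2.42% of the non-productive and 2.59% to 4.36% of the productive TRA entries of a library, without overlap, and 0% to 0.930% and 0.510% to 1.16% in TRB, with overlap. The lowest base quality in the CDR3 averaged 33.1 to 33.7 in non-productive and 33.6 to 34.1 in productive TRA entries of a library, and was lower in the non-productive class in 5 of 5 libraries for both chains. Without such entries in either class the DKO minus WT difference in the non-productive share of entries was 0.489 percentage points in TRA and -0.394 points in TRB, close to the values over all entries. This filter finds an entry only if a neighbour has more reads and left most non-productive entries in place. The effect of other errors was not tested.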

How the data were processed

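RNA from CD4 SP thymocytes of 3 WT and 2 *Tet2/3* DKO libraries was made into full-length cDNA (SMART-seq v4) and sequenced. Per the labels, reads were converted with bcl2fastq 2.20.0, trimmed with fastp 0.21.0 and aligned with STAR 2.7.5a to mm10 (GRCm38) by the authors. The clonotype tool and its version are not given in the sources used here. The deposited clonotype tables give a whole-number read count per TRA or TRB clonotype, a fraction of the chain's reads, which was used to check the counts, and the lowest base quality score of the CDR3. The deposited gene tables hold raw read counts per gene, of which the unstranded column was used. Their 4 entries that name no gene held 20.8% to 23.7% of each library's reads and were left out. No column of single samples was left unmapped. The chains of a library held 6401 to 13723 clonotype reads, so entries of 1 to 3 reads carry counting error.

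Clonotypes were non-productive where the CDR3 translation held _ (frame break) or * (stop). Segments are the first hit, cut at the allele mark. Shares were compared by exact two-sided permutation tests (3 against 2) and classes by exact sign-flip tests over 5 libraries. Segment use was tested on numbers of entries with edgeR 4.0.16 (quasi-likelihood, Benjamini-Hochberg threshold 0.05) for segments with at least 50 entries, or 20 non-productive ones between genotypes. Of 93 segment fits, including alternatives, 7 with a coefficient off from a reference fit were refitted without overdispersion. Genes used TMM, a filter on low counts and a threshold of 0.01. DESeq2 1.42.0 was the alternative, although the study's methods used it. R 4.3.3, Python 3.11.15 and scipy 1.17.1 were used. The scripts were tested on simulated data. Germline ends come from GENCODE transcripts on mm10, and all 192 segments and 55141 of 55487 gene identifiers matched that annotation.

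Named segments were at most the 10 with the largest absolute log2 fold change past the threshold of a comparison, or, if none passed, those with the smallest p. Named rearrangements were the non-productive one with most reads in each library and chain, the in-frame one with a stop and most reads in each genotype and chain, and any found in 3 or more libraries. The members and lists were chosen with earlier results of these data known. 1 gene that the study names is not reported here.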

Additional observations from a re-analysis of the deposited data

How the results depend on the processing

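Of 202 alternative values over 19 comparisons, 152 planned ones kept the direction and the side of the threshold. The TRA difference by reads (-0.125 points) became 0.0695 with in-frame stops only and 0.427 without the 10 largest clonotypes of each library, and it ran from -0.297 to 0.0473 when single libraries were left out. The TRB difference by clonotypes ran from -0.793 to 0.0788, the latter without DKO replicate 1. The TRA median length difference (-0.4 bases) became 1.2 with at least 2 reads, 1.4 weighted by reads and 0.825 by the mean, which was chosen after seeing the data, and 0 with in-frame stops only. Segments called between the classes were fewer with at least 2 reads (TRA V 17 in place of 46, TRA J 2 of 15, TRB V 4 of 15, TRB J 0 of 3), with DESeq2 (TRA J 6, TRB V 9, TRB J 0), with reads in place of clonotypes (TRB V 9, TRB J 0), with a single V hit (TRA V 10) and with TMM factors (TRB V 9). With fewer clonotypes entering, fewer calls can be made, and for the other settings the cause was not tested. Leaving out single libraries gave 9 to 15 TRB V calls (9 without WT replicate 1) and 0 to 3 TRB J calls (0 without WT replicate 2 or 3 or DKO replicate 2, 1 without DKO replicate 1). A genotype left with 1 library was assumed to vary like the other. Between genotypes, the 1 TRA V call was 0 with DESeq2, with reads, with a single hit and with at least 2 reads, and 0 to 2 without single libraries. TRB V calls rose from 0 to 2 with reads and 0 to 3 without single libraries, and TRB J calls from 0 to 2 with TMM factors, 1 with reads and 0 to 2 without single libraries. Calls over all genes were 1062 by DESeq2 and 110 to 1312 without single libraries, where they fell to 152, 110 and 127 without WT replicates 1, 2 and 3 and rose to 1312 and 1149 without DKO replicates 1 and 2.

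Replicate numbers are shared between the genotypes, but the labels tie them to no litter or batch, and the same-numbered libraries deviated together with correlations of 0.0151 and 0.00446 only. With a replicate block the differences were 0.361 and -0.282 points for TRA by clonotypes and by reads and -0.118 and -0.730 points for TRB (exact sign-flip p of 0.5 to 1, with 0.5 the smallest possible), TRA V calls between genotypes were 0, TRB V calls 1, TRA J and TRB J calls 0 and gene calls 359. Depth limits both classes: 79.3% of the non-productive TRA and 80.5% of the non-productive TRB clonotypes rested on a single read. In the productive class these were 72.2% and 77.6%.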

Other observations

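Some clonotypes of the TRA tables used δ chain segments, which lie inside the α locus. Of 357 such entries, 61 were non-productive (17.1%), 15 of 73, 4 of 61 and 18 of 103 in WT replicates 1 to 3, and 14 of 74 and 10 of 46 in DKO replicates 1 and 2. *Trdc*, the δ constant region, had 302, 279 and 457 reads in WT and 384 and 273 reads in DKO libraries, whereas *Tcrg-C1*, a γ constant region, had 109, 111 and 75 against 1241 and 1846 reads.

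The position of the TRAJ segment in non-productive joins can be read from its number, which falls toward the constant region. The mean TRAJ number of non-productive entries was 29.6, 29.3 and 29.1 in WT and 26.5 and 28.0 in DKO libraries, and that of productive entries was 29.1, 29.8, 29.3, 26.6 and 27.3 in the same order. In both classes the DKO libraries lay below the WT libraries, and in no library did the classes differ by more than the gap between DKO replicate 1 and the WT libraries.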
